A study of Homo sapiens with 96 samples.

Results

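The genes described here belong to the families whose enzymes write and erase methyl groups on histone lysines. They are 26 genes of the methyltransferase families and 17 of the demethylase families, 43 of the 14359 genes with a splicing event in the tables. The members are a list of gene symbols, in the spelling used with the hg19 genome, drawn up with earlier results of these data known. All events of a member were taken. They were of 5 types, which are retained introns (RI), exons that are skipped (SE) or exclude each other (MXE), and 3′ or 5′ splice sites with an alternative (A3SS, A5SS). The members held 1072 of the 239131 events listed. These events concern 770 alternative segments, of which 23 are introns.

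Poly(A)-RNA was sequenced from A549 cells, an established human lung adenocarcinoma line, in 30 libraries that form 10 groups of 3 (of the 96 samples of the series, the others not analysed here). Cells were given 1 µM GSK591, an inhibitor of the arginine methyltransferase PRMT5, or 1 µM MS023, an inhibitor of the Type I arginine methyltransferases, for 2, 4, or 7 days. Co-treatment with both at 1 µM each lasted 2 or 4 days. The DMSO controls (0.01%) were kept for 4 or 7 days, so that the 2-day inhibitor groups were set against 4-day DMSO. All libraries come from the same cell line, and nothing in the labels says that the 3 libraries of a group are separate cultures, so that the tests measure the spread between libraries. The libraries of a group are called a, b, and c by their place in the tables.

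Methylation of histone lysines by SET-domain enzymes marks chromatin as active or silent according to the residue, and enzymes of the LSD1 and JmjC families remove the marks. Some relatives act mainly elsewhere, such as SETD3, which methylates actin, and JMJD6, a lysyl hydroxylase whose role as a demethylase is disputed. EHMT1 and EHMT2 (GLP and G9a) work as a pair on H3K9, SETDB1 silences repeats through the same residue, the NSD enzymes and SETD2 methylate H3K36, and KDM4 and KDM5 enzymes demethylate H3K9 or H3K36 and H3K4. The inhibitors act on arginine and not on lysine methylation, and both enzyme classes they target modify RNA-binding and spliceosomal proteins.

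Depth and identity were checked on the whole tables. Between 72359972 and 110790627 reads per library were counted over all events, where a read can count for several events, and 3118222 to 5224249 of them fell on RI. The keratin genes KRT7, KRT8, and KRT18 each had 38338 to 67780 reads on their deepest event in every library. CDH1 had 170 to 192 and EPCAM 17 to 32. The blood genes PTPRC and CD3E and the fibroblast gene COL1A2 had no event, COL3A1 had at most 4 reads, and COL1A1 had 28 to 76. Pairs of libraries of 1 group differed by 1.22 to 2.49 times the sampling variance, and no pair was identical.

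The following sequences belong to called events and were chosen as segments short enough to print whole or as splice sites of unusual form. All are from GRCh37, the assembly that corresponds to hg19, and are written 5′ to 3′ on the transcript strand. The first pair are whole introns with their terminal dinucleotides in capitals. The EHMT2 intron is chr6:31852337-31852421 on the minus strand, 85 nt long and intron 20 of 27 of the canonical GENCODE transcript. The KDM5C intron is chrX:53227820-53227945 on the minus strand, 126 nt long and intron 16 of 25.
EHMT2 intron: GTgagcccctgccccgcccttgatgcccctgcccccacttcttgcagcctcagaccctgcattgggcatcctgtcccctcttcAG
KDM5C intron: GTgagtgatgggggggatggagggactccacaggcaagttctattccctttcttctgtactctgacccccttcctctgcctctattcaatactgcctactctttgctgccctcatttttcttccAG

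The next set are splice sites, shown because they depart from the usual form or are the place where the transcript forms differ. SETDB1 intron 19 of 21 (chr1:150935616-150936005, plus strand, 390 nt) has the 5′ end below, with GT in capitals after the last 3 exon bases. The SMYD2 intron 9 of 11 (chr1:214504414-214505360, plus strand, 947 nt) begins with AT and ends with AC. In its 5′ end the capitals mark the intron's first 8 bases, and in its 3′ end they mark the stretch CCTTGAC and the closing AC. In KDM5C the capitals mark 9 nt (chrX:53222955-53222963, minus strand, exon 24 of 26) that the longer A5SS form keeps.
SETDB1 5′ end: ctgGTagcc
SMYD2 5′ end: aatATATCCTTtaca
SMYD2 3′ end: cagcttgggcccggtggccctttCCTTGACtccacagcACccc
KDM5C 5′ sites: cagGTAAGAGAGgtaggt

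ATATCCTT and CCTTGAC are the letters typical of the minor class of introns, which a separate spliceosome removes. Searched on the transcript strand only, ATATCCTT opened 3 of the 4928 introns listed as RI (0.0609%), and CCTTGAC stood in the last 40 bases of 36 (0.731%). Introns running from AT to AC were 7 of the 4928 (0.142%), and SMYD2 intron 9 was the only member among them.

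The last pair are coding exons that were left out of more transcripts. The EHMT2 exon is chr6:31856746-31856847 on the minus strand, 102 nt long and exon 10 of 28, with a length divisible by 3. The KDM4C exon is chr9:7049092-7049200 on the plus strand, 109 nt long and exon 17 of 22, with a length not divisible by 3.
EHMT2 exon: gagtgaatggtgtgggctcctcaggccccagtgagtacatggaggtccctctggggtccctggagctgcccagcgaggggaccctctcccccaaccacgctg
KDM4C exon: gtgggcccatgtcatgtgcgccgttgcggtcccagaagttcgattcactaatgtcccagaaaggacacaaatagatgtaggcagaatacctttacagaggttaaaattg

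Splicing was read as Ψ, the share of transcripts that keep the alternative segment. ΔΨ is the mean Ψ of an inhibitor group minus that of its DMSO group. It is given with its standard error (SE) for most segments. An event was called where its adjusted p was under 0.05 in a quasi-binomial test of the reads for and against the segment, adjusted by Benjamini-Hochberg over all events of the type. Every adjusted p below is from this test unless limma is named. At least 1 event of 33 of the 43 genes was called against DMSO (76.7%). Over all genes with a tested event this share was 57.4% (6739 of 11731), and members had more events, with a median of 21 tested per gene against 11. GSK591 accounted for 21 of these genes (48.8%, against 43.2% of all genes), co-treatment for 27 (62.8%, against 52.2%), and MS023 for 9 (20.9%, against 21.6%), and these counts share genes and DMSO libraries.

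The share of member events called was below that of all events in each of the 8 comparisons with DMSO. These comparisons share DMSO libraries and many of the same events, so they are not 8 independent results. Whether the shares differ was not tested. With GSK591, 20 of 499 member events were called at 2 days (4.01%, against 5.06% of all events), 34 of 543 at 4 days (6.26%, against 8.55%), and 21 of 462 at 7 days (4.55%, against 6.24%). With co-treatment, 41 of 593 were called at 2 days (6.91%, against 9.97%) and 46 of 539 at 4 days (8.53%, against 11.6%). With MS023, 6 of 538 were called at 2 days (1.12%, against 1.68%), 6 of 542 at 4 days (1.11%, against 2.16%), and 10 of 511 at 7 days (1.96%, against 3.06%). The 2-day MS023 count was 0 without MS023 library a or b, 1 without c, and 2, 2, and 3 without DMSO library a, b, and c.

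**Figure D1:**
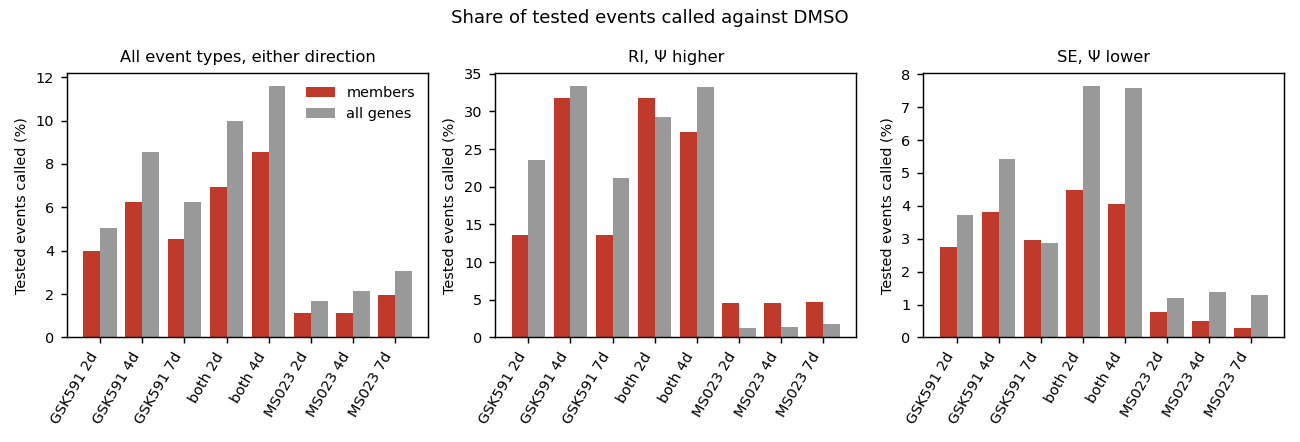
Percent of tested events called against DMSO in the 43 histone lysine enzymes (red) and in all genes (grey), for all event types, for RI with higher Ψ, and for SE with lower Ψ. Each pair of bars is 1 comparison, and the comparisons share DMSO libraries. In the left panel the red bar is the lower in all 8, from 1.11% to 8.53% against 1.68% to 11.6%.

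Among introns, 22 member RI were tested in all comparisons but the last, which tested 21. Ψ was higher in 3 with 2-day GSK591 (background 23.5%) and lower in 1 (2.22%). At 4 days 7 were higher (33.4%) and 1 lower (4.09%), and at 7 days 3 were higher (21.2%) and 1 lower (5.84%). With co-treatment 7 were higher (29.2%) and 3 lower (4.82%) at 2 days, and 6 higher (33.2%) and 2 lower (5.93%) at 4 days. With MS023, 1 was higher (1.32%) and 1 lower (4.03%) at 2 days, 1 higher (1.44%) and 1 lower (5.12%) at 4 days, and 1 higher (1.83%) and 0 lower (9.29%) at 7 days. At an unadjusted p under 0.05, 4, 5, and 3 member RI passed with MS023 at 2, 4, and 7 days by the quasi-binomial test (16%, 18.8%, and 22.4% of all RI did) and 3, 3, and 5 by limma (11.7%, 15.3%, and 18% of all), which called none. The median ΔΨ of the member RI was 0.00705, -0.0047, and -0.00077 with GSK591 at 2, 4, and 7 days, against 0.015, 0.0196, and 0.00762 over all RI tested. It was 0.00452 and 4.02e-05 with co-treatment (0.0161 over all RI at both times) and -0.00182, 0.004, and -0.000188 with MS023 (-0.00316, -0.00404, and -0.00596 over all). Member introns were longer and poorer in G and C than the rest, with a median of 485 nt and 45.9% GC against 260 nt and 57.4% over all introns listed as RI.

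Among skipped exons, falls outnumbered rises in 6 of the 8 comparisons. With GSK591 the numbers lower and higher were 10 and 2 of 363 at 2 days (background 3.71% and 0.788%), 15 and 5 of 393 at 4 days (5.41% and 1.57%), and 10 and 5 of 338 at 7 days (2.88% and 2.05%). With co-treatment they were 19 and 6 of 424 at 2 days (7.65% and 1.49%) and 16 and 10 of 393 at 4 days (7.59% and 2.82%). With MS023 they were 3 and 1 of 394 at 2 days (1.21% and 0.439%), 2 and 2 of 392 at 4 days (1.39% and 0.688%), and 1 and 6 of 366 at 7 days (1.29% and 1.33%).

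The 28 segments described next gave 103 calls. Of these, 39 were in introns and 64 in other segments. The inhibitor and DMSO libraries did not overlap in 37 of the 39 and in 63 of the 64. Over all genes this held for 94.8% of RI calls and 93.9% of other calls. Where libraries are said below not to overlap, this therefore adds little to the call itself. When limma was applied to the log2 odds instead, 22 of the 39 intron calls passed (adjusted p 0.00346 to 0.386) and 7 of the 64 others did (0.0133 to 0.743). Those 7 belong to EHMT1, SETD5, KDM4C, WHSC1, and SETDB1 and are marked below. The other exon and splice-site calls against DMSO in these 28 segments rest on the read-based test alone. For single segments outside the 28, limma results are not given.

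**Figure D2:**
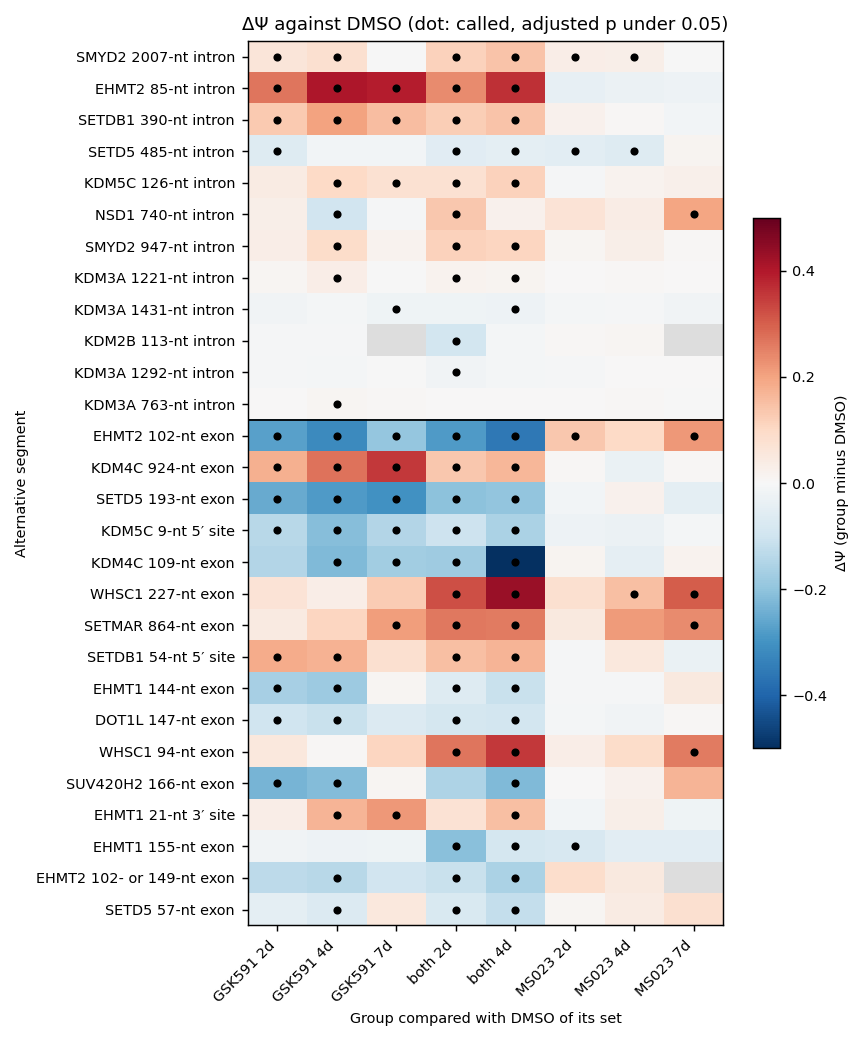
ΔΨ (color, group minus DMSO) of the 28 named segments, introns above the line and other segments below it, in the 8 comparisons. "Both" is co-treatment, dots mark called events, and grey cells were not tested. The KDM4C 109-nt exon (-0.498) and the WHSC1 227-nt exon (0.431) have the values farthest from 0, both with 4-day co-treatment, the EHMT2 85-nt intron reaches 0.405 and its 102-nt exon -0.358, and most dots lie in the GSK591 and co-treatment columns.

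Over all members, 82 of 988 tested events were called in at least 1 comparison. The matching share over all genes was not counted, so the counts by group have no background and do not show that a group was unusual. The genes grouped as H3K9 methyltransferases had 119 tested events, of which 21 were called in at least 1 comparison, in 5 of 6 genes. SUV39H1, with 3 tested events, had none. EHMT2 retained its 85-nt intron more with every treatment that contained GSK591. In 4-day DMSO the Ψ of libraries a, b, and c was 0.127, 0.107, and 0.200. With GSK591 it was 0.436, 0.406, and 0.398 at 2 days and 0.604, 0.579, and 0.466 at 4 days. All 6 GSK591 libraries were above all 3 DMSO libraries, with a ΔΨ of 0.269 ± 0.0306 (SE, adjusted p = 1.7e-05) and 0.405 ± 0.0508 (adjusted p = 3.5e-09). At 7 days DMSO gave 0.142, 0.116, and 0.168 and GSK591 0.541, 0.560, and 0.497, a ΔΨ of 0.391 ± 0.0239 (adjusted p = 1.46e-08). Co-treatment gave means of 0.380 and 0.511 at 2 and 4 days, with a ΔΨ of 0.236 ± 0.0377 and 0.366 ± 0.038. These 5 calls also passed with limma. MS023 gave means of 0.102, 0.114, and 0.116 at 2, 4, and 7 days and was not called, with a ΔΨ between -0.0428 ± 0.0299 and -0.0262 ± 0.036. Each library had 120 to 228 reads on this intron. Read on from the upstream exon in its annotated frame, the intron has a stop as codon 2, counted from the codon that crosses the junction.

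The 102-nt exon of EHMT2 fell with every treatment that contained GSK591 and rose with 2- and 7-day MS023. Its Ψ was 0.531, 0.632, and 0.525 in 4-day DMSO, 0.260, 0.306, and 0.313 with 2-day GSK591, and 0.245, 0.243, and 0.245 with 4-day GSK591. It was 0.693, 0.707, and 0.689 with 2-day MS023. The GSK591 libraries all lay below DMSO and the MS023 libraries all above it. ΔΨ was -0.270 ± 0.0383 (adjusted p = 1.4e-09) and -0.318 ± 0.0345 (adjusted p = 6.41e-17) with GSK591 and -0.283 ± 0.0423 and -0.358 ± 0.0529 with 2- and 4-day co-treatment. At 7 days Ψ was 0.543, 0.478, and 0.647 in DMSO, 0.293, 0.397, and 0.398 with GSK591 (ΔΨ -0.193 ± 0.0605, adjusted p = 2.98e-05), and 0.748, 0.788, and 0.787 with MS023 (ΔΨ 0.218 ± 0.0511, adjusted p = 2.98e-08). MS023 gave 0.134 ± 0.035 at 2 days (adjusted p = 0.0211, lost without any of 5 of the 6 libraries, adjusted p up to 0.21 without DMSO library c) and 0.101 ± 0.0369 at 4 days (adjusted p = 0.151). An MXE event sets this exon against the 149-nt exon downstream of it (chr6:31856376-31856524, exon 11 of 28) and shares its reads. Ψ of that event is the share with the 102-nt exon. It moved by -0.140 ± 0.0251, -0.110 ± 0.0302, and -0.160 ± 0.039 with 4-day GSK591 and with 2- and 4-day co-treatment. The 2-day co-treatment call was lost without co-treatment library b (adjusted p = 0.118).

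SETDB1 retained its 390-nt intron more with GSK591. Ψ was 0.0961, 0.103, and 0.0949 in 4-day DMSO, 0.184, 0.273, and 0.225 with 2-day GSK591, and 0.345, 0.278, and 0.276 with 4-day GSK591. All treated libraries exceeded all controls. ΔΨ was 0.129 ± 0.0257 (adjusted p = 0.00195), 0.202 ± 0.0228 (adjusted p = 6.45e-07), and at 7 days 0.156 ± 0.0502 (adjusted p = 0.00093). Co-treatment gave 0.123 ± 0.0282 and 0.142 ± 0.00884, and MS023 between -0.0151 ± 0.0132 and 0.0199 ± 0.00973, which was not called. All 5 calls passed with limma. The intron overlaps an exon of CERS2, which is transcribed from the opposite strand. The libraries were stranded, but whether strand was used in counting is not given in the sources used here, and reads from the 2 genes could not be told apart. In the annotated frame a stop stands at codon 19. An A5SS event in the noncoding exon 1 of SETDB1 (chr1:150898940-150898993) also moved, with the 54-nt longer form at 0.829, 0.780, and 0.820 in 4-day DMSO and 1.000, 1.000, and 0.986 with 2-day GSK591. ΔΨ was 0.186 ± 0.0158 and 0.172 ± 0.0237 with 2- and 4-day GSK591 and 0.15 ± 0.0381 and 0.168 ± 0.0268 with 2- and 4-day co-treatment. All but the 2-day co-treatment call passed with limma, and that call was lost without DMSO library b or co-treatment library b or c (adjusted p up to 0.128).

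EHMT1, the partner of EHMT2, changed in several places along the gene. Its 144-nt exon (chr9:140669561-140669704, exon 11 of 27, coding, divisible by 3) was at 0.974, 0.960, and 0.960 in 4-day DMSO, 0.766, 0.833, and 0.793 with 2-day GSK591, and 0.709, 0.770, and 0.869 with 4-day GSK591. ΔΨ was -0.167 ± 0.0202 (adjusted p = 3.11e-08) and -0.182 ± 0.0467 (adjusted p = 1.71e-09), and 4-day co-treatment gave -0.111 ± 0.0369. At 7 days GSK591 gave 0.991, 0.890, and 0.944 against 0.905, 0.957, and 0.931 in DMSO, which overlap. The call with 2-day co-treatment (-0.0657 ± 0.0168) was lost without any of 5 of the 6 libraries, with an adjusted p up to 0.295 without co-treatment library c.

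The 155-nt exon of EHMT1 (chr9:140705913-140706067, exon 19 of 27, coding) fell with co-treatment. It was at 0.957, 0.963, and 0.957 in 4-day DMSO and 0.734, 0.727, and 0.784 with 2-day co-treatment, a ΔΨ of -0.210 ± 0.0181 (adjusted p = 5.45e-10, limma 0.0296). With 4-day co-treatment ΔΨ was -0.0895 ± 0.0126 (adjusted p = 0.00199). GSK591 alone gave -0.0238 ± 0.0165 to -0.019 ± 0.00509 and was not called. MS023 gave -0.0819 ± 0.00815 at 2 days (adjusted p = 0.0291), a call lost without any of the 6 libraries (adjusted p up to 0.167). A 21-nt extension at the 3′ splice site of exon 5 of 27 (chr9:140637823-140637843) was used more with 4- and 7-day GSK591. Its Ψ was 0.510, 0.442, and 0.463 in 4-day DMSO, 0.535, 0.449, and 0.530 with 2-day GSK591, which overlapped DMSO (ΔΨ 0.0332 ± 0.0343, adjusted p = 0.772), and 0.604, 0.658, and 0.667 with 4-day GSK591 (ΔΨ 0.171 ± 0.0281, adjusted p = 0.000737). At 7 days ΔΨ was 0.216 ± 0.0584 (adjusted p = 0.00011). The rise of 0.149 ± 0.0459 with 4-day co-treatment was lost without DMSO library b or co-treatment library a or c (adjusted p up to 0.173). The remaining calls in EHMT1 were a 78-nt exon and a pair of MXE events, with a largest ΔΨ of 0.0889, -0.158, and 0.184. In SETDB2 a 36-nt exon was absent in 4-day DMSO and at a mean Ψ of 0.270 with 4-day GSK591, and in SUV39H2 a 540-nt longer A5SS form rose by 0.0684 with 2-day co-treatment.

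The H3K36 methyltransferases and their relatives had 219 tested events, of which 27 were called, in 6 of 7 genes, all but WHSC1L1. SMYD2, which methylates H3K36 and several other proteins, retained a pair of neighboring introns. Intron 9 is the one from AT to AC, and intron 10 of 11 (chr1:214505536-214507542, 2007 nt, GT to AG) follows the next exon. Ψ of intron 9 was 0.0513, 0.0485, and 0.0699 in 4-day DMSO, 0.144, 0.160, and 0.146 with 4-day GSK591, and 0.183, 0.149, and 0.180 with 2-day co-treatment. Ψ of intron 10 was 0.0574, 0.0698, and 0.0652 in 4-day DMSO, 0.122, 0.135, and 0.175 with 4-day GSK591, and 0.179, 0.186, and 0.174 with 2-day co-treatment. The treated libraries all exceeded the controls in both introns. For intron 9 ΔΨ was 0.0931 ± 0.00849 with 4-day GSK591 (adjusted p = 5.56e-08) and 0.114 ± 0.0127 and 0.107 ± 0.00936 with 2- and 4-day co-treatment. For intron 10 it was 0.080 ± 0.0161 with 4-day GSK591 (adjusted p = 3.19e-07) and 0.116 ± 0.00494 and 0.141 ± 0.0169 with co-treatment. These calls passed with limma.

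With 2-day GSK591 intron 10 was also higher, by 0.0599 ± 0.0102 (adjusted p = 0.000111), whereas intron 9 had libraries at 0.0494, 0.129, and 0.0941 that overlapped DMSO. MS023 raised intron 10 by 0.0329 ± 0.00824 at 2 days and 0.0282 ± 0.00664 at 4 days, calls that limma did not make (adjusted p = 0.386 and 0.303) and that were each lost without 3 of the 6 libraries. Without MS023 library a, at 2 days, the adjusted p was 0.0833, and without DMSO library a, at 4 days, it was 0.132. At 7 days neither intron was called with GSK591, with a ΔΨ of 0.0174 ± 0.00964 for intron 9 and -0.00289 ± 0.0116 for intron 10. Each library had 226 to 621 reads on either intron. A 3250-nt longer A3SS form of SMYD2 (chr1:214504293-214507542), outside the rule for named segments, spans both introns. The segment also holds exon sequence before intron 9 and the exon between the introns. Its Ψ is therefore not a measure of intron retention and cannot be set against the intron values. With 4-day co-treatment the mean Ψ of this A3SS event went from 0.88 to 0.57. Its ΔΨ was -0.311 ± 0.0227 (adjusted p = 0.000214), called in 1 comparison.

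SETD5, a SET-domain protein studied for H3K36 methylation, moved in the other direction. Its 485-nt intron (chr3:9516267-9516751, plus strand, intron 21 of 22) was at 0.134, 0.169, and 0.170 in 4-day DMSO and 0.101, 0.0822, and 0.102 with 2-day GSK591. ΔΨ was -0.0628 ± 0.0134 with 2-day GSK591, -0.0549 ± 0.0139 and -0.0504 ± 0.0157 with 2- and 4-day co-treatment, and -0.054 ± 0.0122 and -0.0638 ± 0.012 with 2- and 4-day MS023. It was not called with 4-day GSK591, where libraries ranged from 0.106 to 0.185, nor at 7 days. DMSO itself was lower at 7 days than at 4, at 0.102, 0.0907, and 0.111 (ΔΨ -0.0567 ± 0.0132, adjusted p = 0.0272). None of these calls passed with limma (adjusted p 0.0834 to 0.365). The 2-day GSK591 call was lost without GSK591 library b (adjusted p = 0.0545), and the 2-day MS023 call without DMSO library b or any MS023 library (adjusted p up to 0.0952).

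A 193-nt exon of SETD5 (chr3:9475054-9475246, in a noncoding part of the annotated transcripts) fell with GSK591 at every time. Ψ was 0.621, 0.590, and 0.507 in 4-day DMSO, 0.246, 0.401, and 0.317 with 2-day GSK591, and 0.367, 0.275, and 0.230 with 4-day GSK591. At 7 days it was 0.528, 0.433, and 0.561 in DMSO and 0.289, 0.196, and 0.131 with GSK591. The groups did not overlap, with a ΔΨ of -0.251 ± 0.0561, -0.282 ± 0.0528, and -0.302 ± 0.0598 (adjusted p = 0.000296, 6.92e-10, and 6.5e-05). MS023 gave -0.0472 ± 0.0477 to 0.0217 ± 0.0491. The lowest library had 35 reads on this exon at 2 and at 7 days of GSK591. With co-treatment ΔΨ was -0.205 ± 0.101 and -0.196 ± 0.0717, calls lost without co-treatment library c at 2 days (adjusted p = 0.0597) and library a at 4 days (0.0861). A 57-nt exon (chr3:9510203-9510259, coding in a noncanonical transcript) fell from a mean of 0.144 to 0.0263 with 4-day co-treatment (ΔΨ -0.118 ± 0.0139, adjusted p = 3.39e-08, limma 0.0381). Its changes of -0.0685 ± 0.0199 with 4-day GSK591 and -0.0776 ± 0.0157 with 2-day co-treatment were lost without 5 and 3 of the 6 libraries, with an adjusted p up to 0.38 without GSK591 library c and 0.111 without DMSO library b.

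WHSC1 (NSD2), which dimethylates H3K36, used a noncoding exon more with co-treatment and with MS023. The exon has 2 ends, giving segments of 227 nt (chr4:1944066-1944292) and 94 nt (chr4:1944066-1944159) that share reads. Ψ of the 227-nt form was 0.188, 0.182, and 0.198 in 4-day DMSO, 0.251, 0.207, and 0.213 with 4-day GSK591, 0.313, 0.336, and 0.373 with 4-day MS023, and 0.507, 0.543, and 0.811 with 4-day co-treatment. The 4 groups did not overlap. ΔΨ was 0.323 ± 0.0605 and 0.431 ± 0.0958 with 2- and 4-day co-treatment (adjusted p = 3.8e-13 and 4.16e-12, the second with limma 0.0476), 0.151 ± 0.018 with 4-day MS023 (adjusted p = 1.05e-05), and 0.301 ± 0.0545 with 7-day MS023 (adjusted p = 4.16e-09). GSK591 alone was not called, with 0.0342 ± 0.0146 to 0.126 ± 0.0667. The 94-nt form gave 0.266 ± 0.0453 and 0.353 ± 0.105 with co-treatment and 0.259 ± 0.0634 with 7-day MS023. Reads on the 227-nt form were 365 to 458 per library in 4-day DMSO and 56 to 90 with 4-day co-treatment. In bulk RNA, fewer cells with these transcripts and less RNA per cell cannot be told apart. A further A3SS event of WHSC1, with a 572-nt extension, rose by 0.381 ± 0.133 with 4-day co-treatment (adjusted p = 1.51e-06).

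NSD1, a related enzyme, had a 740-nt intron of noncanonical transcripts (chr5:176562202-176562941) whose changes differed in sign. Ψ was 0.301, 0.195, and 0.188 in 4-day DMSO, 0.154, 0.110, and 0.134 with 4-day GSK591, and 0.383, 0.388, and 0.315 with 2-day co-treatment. ΔΨ was -0.0956 ± 0.0385 (adjusted p = 0.00188) and 0.134 ± 0.0432 (adjusted p = 0.00316). At 7 days it was 0.103, 0.114, and 0.128 in DMSO, 0.0868, 0.118, and 0.125 with GSK591, and 0.321, 0.274, and 0.338 with MS023 (ΔΨ 0.196 ± 0.0204, adjusted p = 3.89e-07). DMSO was lower at 7 than at 4 days (ΔΨ -0.113 ± 0.037, adjusted p = 0.00489). None of the 3 calls passed with limma (adjusted p 0.0719 to 0.0849).

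SETMAR, a SET domain fused to a transposase, kept its 864-nt coding exon 2 of 3 (chr3:4354582-4355445) more often with 7-day GSK591, co-treatment, and 7-day MS023. Ψ was 0.662, 0.589, and 0.561 in 4-day DMSO and 0.733, 0.866, and 1.000 with 2-day co-treatment. At 7 days it was 0.385, 0.365, and 0.564 in DMSO, 0.608, 0.612, and 0.721 with GSK591, and 0.686, 0.710, and 0.632 with MS023. Few reads skipped the exon, with 16, 27, and 26 in 4-day DMSO, 8, 4, and 0 with 2-day co-treatment, and 11, 0, and 3 at 4 days. In the 7-day set skipping reads were 35, 32, and 19 in DMSO, 13, 14, and 9 with GSK591, and 8, 8, and 9 with MS023. ΔΨ was 0.209 ± 0.0733 to 0.262 ± 0.0828, with an adjusted p between 0.0157 and 0.0276. These 4 calls were each lost without 4 or 5 of the 6 libraries, with an adjusted p up to 0.219 without GSK591 library c, 0.208 and 0.254 without co-treatment library c at 2 days and b at 4 days, and 0.193 without DMSO library b for MS023.

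In the remaining methyltransferases the named changes were exons left out. DOT1L, the only H3K79 methyltransferase, had its 147-nt exon 22 of 28 (chr19:2217771-2217917) at 0.976, 1.000, and 0.965 in 4-day DMSO and 0.939, 0.782, and 0.887 with 4-day GSK591. ΔΨ was -0.098 ± 0.0212 and -0.111 ± 0.0473 with 2- and 4-day GSK591 and -0.0863 ± 0.0377 and -0.0929 ± 0.0141 with 2- and 4-day co-treatment (adjusted p 0.00464 to 0.035). All 4 calls were lost without DMSO library b, which had Ψ of 1.000 (adjusted p 0.331, 0.106, 0.204, and 0.164), and each also without 1 to 3 other libraries. SUV420H2 (KMT5C), an H4K20 methyltransferase, had its 166-nt exon 3 of 9 (chr19:55853583-55853748) at 0.640, 0.678, and 0.785 in 4-day DMSO and 0.495, 0.437, and 0.476 with 2-day GSK591. ΔΨ was -0.231 ± 0.0465, -0.216 ± 0.0551, and -0.221 ± 0.0577 with 2-day GSK591, 4-day GSK591, and 4-day co-treatment (adjusted p 0.00211 to 0.00645). These were lost without DMSO library c (adjusted p = 0.103, 0.0553, and 0.0547) and without GSK591 library b at 2 days, GSK591 library c at 4 days, or co-treatment library b (0.0742, 0.0703, and 0.0792). In DMSO this exon was itself lower at 7 days than at 4 (ΔΨ -0.204 ± 0.0616, adjusted p = 0.0207).

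The 6 genes SETD1A, SETD1B, SETD7, SMYD3, ASH1L, and PRDM2 were grouped with the H3K4 enzymes, although ASH1L is known for dimethylating H3K36 and PRDM2 for methylating H3K9. They had 87 tested events, of which 4 were called, in 4 genes and with co-treatment alone. The exons of ASH1L (180 nt), PRDM2 (4414 nt), and SMYD3 (109 nt) fell with 2-day co-treatment, with a ΔΨ of -0.152, -0.141, and -0.169, and an MXE event of SETD7 moved by 0.0721 at 4 days. EZH2, the catalytic subunit of PRC2 that methylates H3K27, had a 27-nt longer A5SS form that rose in 3 comparisons (0.0907 with 2-day co-treatment) and a 126-nt exon that fell in 2 (-0.108 with 4-day co-treatment). SETD2, which adds the last methyl group to H3K36, had a 283-nt exon and an A5SS event in the same place. The exon rose by 0.126 ± 0.0312 with 4-day GSK591. The longer A5SS form rose by 0.214 ± 0.147 with 2-day GSK591, a large standard error beside the change. These segments were outside the rule for named segments. That rule took the 16 called in most comparisons among those with an absolute ΔΨ of at least 0.1. For segments outside it only the largest ΔΨ is given, without results of limma or of leaving out libraries.

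The JmjC family had 292 tested events, of which 21 were called, in 11 of 15 genes. KDM5C, which demethylates H3K4, retained its 126-nt intron more and used its shorter 5′ splice site more. Ψ of the intron was 0.127, 0.139, and 0.180 in 4-day DMSO, 0.283, 0.236, and 0.229 with 4-day GSK591, and 0.263, 0.250, and 0.274 with 4-day co-treatment. ΔΨ was 0.1 ± 0.0234 (adjusted p = 0.000361) and 0.114 ± 0.0176 (adjusted p = 2.22e-05), both passing with limma, and 0.075 ± 0.0152 with 7-day GSK591 (adjusted p = 0.00985). The rise of 0.075 ± 0.0283 with 2-day co-treatment overlapped DMSO and was lost without co-treatment library b (adjusted p = 0.0803). MS023 gave -0.00763 ± 0.0182 to 0.0252 ± 0.0257. The intron has a stop as codon 3 of the annotated frame.

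The 9-nt extension at KDM5C exon 24 was kept by 0.451, 0.387, and 0.455 of transcripts in 4-day DMSO, by 0.324, 0.306, and 0.245 with 2-day GSK591, and by 0.209, 0.229, and 0.213 with 4-day GSK591. At 7 days it was kept by 0.421, 0.362, and 0.393 in DMSO and 0.250, 0.257, and 0.235 with GSK591. No treated library reached its controls. ΔΨ was -0.139 ± 0.0324, -0.213 ± 0.0228, and -0.145 ± 0.0181 with GSK591 (adjusted p = 0.000217, 2.01e-12, and 1.35e-05) and -0.104 ± 0.0274 and -0.160 ± 0.0289 with 2- and 4-day co-treatment. The 2-day co-treatment call was lost without DMSO library a or co-treatment library c (adjusted p up to 0.0731). MS023 gave -0.0298 ± 0.0236 to -0.00944 ± 0.0294. Each library had 256 to 524 reads, and the limma adjusted p was 0.0561 with 4-day GSK591.

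KDM4C, which demethylates H3K9 and H3K36, had exons that moved in opposite directions. A 924-nt exon found in a noncoding transcript (chr9:6981842-6982765) was at 0.0649, 0.107, and 0.0681 in 4-day DMSO, 0.212, 0.272, and 0.282 with 2-day GSK591, and 0.319, 0.371, and 0.363 with 4-day GSK591. At 7 days it was at 0.0342, 0.0979, and 0.0698 in DMSO and 0.374, 0.388, and 0.5 with GSK591. ΔΨ was 0.176 ± 0.0257, 0.271 ± 0.0209, and 0.353 ± 0.0439 (adjusted p = 0.000122, 1.32e-09, and 8.28e-16), and 0.136 ± 0.0241 and 0.167 ± 0.0309 with co-treatment. MS023 gave -0.0316 ± 0.0136 to 0.00524 ± 0.0242.

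The 109-nt coding exon 17 of KDM4C was at 1.000, 0.964, and 0.925 in 4-day DMSO, 0.755, 0.737, and 0.731 with 4-day GSK591, and 0.455, 0.478, and 0.464 with 4-day co-treatment. The 3 groups were apart, with a ΔΨ of -0.222 ± 0.0228 (adjusted p = 0.00207) and -0.498 ± 0.0227 (adjusted p = 6.95e-11, limma 0.0133). With 2-day GSK591 ΔΨ was -0.145 ± 0.0251 and not called (adjusted p = 0.1). With 7-day GSK591 ΔΨ was -0.174 ± 0.0346 and with 2-day co-treatment -0.179 ± 0.101, calls lost without 3 of the 6 libraries each (adjusted p up to 0.077 without DMSO library b and 0.556 without co-treatment library b, where ΔΨ was -0.0801). This exon had 39 to 120 reads per library.

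KDM3A, an H3K9 demethylase, had 4 introns with small calls. Its 1221-nt intron (chr2:86716783-86718003, intron 23 of 25) was at 0.0245, 0.0119, and 0.011 in 4-day DMSO and 0.0435, 0.0395, and 0.0623 with 4-day GSK591 (ΔΨ 0.0327 ± 0.00826, adjusted p = 8.48e-05, limma 0.0246). The calls of 0.0176 ± 0.00455 and 0.012 ± 0.00624 with 2- and 4-day co-treatment were lost without DMSO library b (adjusted p = 0.0591 and 0.161), the second also without DMSO library c or co-treatment library a (up to 0.242). The other 3 introns (chr2:86705859-86707289, chr2:86709818-86711109, and chr2:86718399-86719161) changed by at most 0.027 in size, with a called ΔΨ of -0.0222 ± 0.0125 and -0.027 ± 0.0102, of -0.0182 ± 0.00485, and of 0.00822 ± 0.00277. Each of these 4 calls was lost without 1 to 3 libraries, with an adjusted p up to 0.297 without DMSO library a at 7 days, 0.0622 without co-treatment library a, 0.0548 without DMSO library a, and 0.147 without GSK591 library b. A 113-nt intron of KDM2B (chr12:121867967-121868079, minus strand) is annotated in 1 of 18 transcripts of the gene, not the canonical one. Reads that splice it out were 0, 2, and 0 in 4-day DMSO and 7, 7, and 6 with 2-day co-treatment. The intron was at a Ψ of 1.000, 0.970, and 1.000 in 4-day DMSO, and at 0.884, 0.906, and 0.905 with 2-day co-treatment (ΔΨ -0.0915 ± 0.0124, adjusted p = 0.0303). It lies over an exon of RNF34 on the opposite strand, whose reads could not be told apart from it, and the call was lost without 5 of the 6 libraries (adjusted p up to 0.107 without DMSO library c).

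Of the other demethylases, KDM6A, which removes methyl groups from H3K27, had a 102-nt exon that rose with 7-day GSK591. Its mean Ψ went from 0.277 to 0.565, a ΔΨ of 0.288 ± 0.114. PHF8, which acts on H3K9 and H4K20, had a 303-nt exon that rose by 0.222 ± 0.0652 with 4-day co-treatment. KDM1A (LSD1) had a 60-nt exon that rose by 0.110 with 4-day co-treatment, and a 172-nt exon of KDM1B fell by 0.0664 with 2-day co-treatment. KDM3B, KDM4A, KDM5A, KDM5B, and KDM6B each had 1 to 3 segments with a largest ΔΨ between -0.117 and 0.121. Over the 45 called segments outside the naming rule, which lie in 26 genes, the median of the largest absolute ΔΨ was 0.108 (range 0.0368 to 0.381), and 29 were called in 1 comparison.

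No event was called against DMSO in 10 genes, EZH1, SUV39H1, SETD1A, SETD1B, WHSC1L1, SETD3, KDM2A, KDM4B, PHF2, and JMJD6, over 163 tested events (3 to 43 per gene). SETD6 and SUV420H1, not described above, had 1 event called each. The 11 member introns not called in any comparison were those of EZH2, KDM2B, KDM3A, KDM3B, SETD6, SETMAR, SUV39H1, and SUV420H2. Those of EZH2 (chr7:148513871-148514968) and SETD6 (chr16:58549785-58549856) had the largest falls among them (ΔΨ -0.125 in both), with a smallest adjusted p over the comparisons of 0.218 and 0.0997.

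The inhibitors were compared with each other directly, without the DMSO libraries. Between GSK591 and MS023, 32 of 416 member events differed at 2 days (background 8.69%), 50 of 426 at 4 days (13.3%), and 29 of 385 at 7 days (10.8%). The EHMT2 intron was higher with GSK591 by 0.312 ± 0.0152, 0.436 ± 0.0467, and 0.417 ± 0.0376 at 2, 4, and 7 days (adjusted p = 5.9e-07, 1.72e-14, and 2.87e-15), and the EHMT2 102-nt exon lower, with a ΔΨ of -0.404 ± 0.0175, -0.419 ± 0.013, and -0.411 ± 0.0373 (adjusted p = 2.68e-22, 1.9e-31, and 5.28e-26). The SETDB1 intron was higher by 0.109 ± 0.0272, 0.197 ± 0.0245, and 0.171 ± 0.0506 (adjusted p = 0.00733, 1.97e-08, and 9.6e-07). The KDM5C 9-nt site, the SETD5 193-nt exon, and both KDM4C exons also differed at all 3 times. NSD1's intron was lower with GSK591, with a ΔΨ of -0.132 ± 0.0246 at 4 days and -0.201 ± 0.0224 at 7 days (adjusted p = 1.43e-06 and 2.19e-08). Both SMYD2 introns differed at 4 days (0.062 ± 0.0173 and 0.0517 ± 0.0166 higher with GSK591) and were not called at 2 or 7 days.

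Adding MS023 to GSK591 changed few member events. Between co-treatment and GSK591, 5 of 428 differed at 2 days (background 2.7%, 3 without co-treatment library b) and 15 of 434 at 4 days (4.33%). The WHSC1 227-nt exon was higher with co-treatment by 0.254 ± 0.0787 at 2 days and 0.397 ± 0.0967 at 4 days (adjusted p = 7.49e-06 and 1.81e-07). The EHMT1 155-nt exon was lower at 2 days (ΔΨ -0.191 ± 0.0186, adjusted p = 3.25e-06) and the KDM4C 109-nt exon at 4 days (ΔΨ -0.276 ± 0.0097, adjusted p = 0.00598). SMYD2 intron 9 was higher at 2 days by 0.0798 ± 0.0254 (adjusted p = 0.0196) and the NSD1 intron at 4 days by 0.118 ± 0.0133 (adjusted p = 0.000124). The EHMT2 intron did not pass, at -0.0333 ± 0.0276 and -0.0388 ± 0.0493. With limma no member event passed at either time, while 54 at 2 days (12.6%, against 10.7% of all events) and 53 at 4 days (12.2%, against 12.7%) had an unadjusted p under 0.05.

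Between the DMSO groups, 13 of 365 member events differed at 7 days against 4 (background 5.2%), among them the SETD5 and NSD1 introns and the SUV420H2 exon given above. The number was 7 without 7-day DMSO library a or b. Tested as an interaction, the effect of GSK591 at 7 days differed from that at 4 days in 4 of 354 member events (background 1.81%), and that of MS023 in 0 of 380 (background 0.112%), of which 27 had an unadjusted p under 0.05 (7.11%, against 6.81% of all events).

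Genes that work with the members were taken from lists of COMPASS and MLL subunits, PRC2 and its partners, and CoREST partners. Further lists held readers of H3K9 and H3K36 methylation, DOT1L partners, and other SET and JmjC genes. Together they named 72 genes, of which 62 to 65 had a listed event in a comparison. With GSK591 43 of 816 of their events were called at 2 days (5.27%, against 5.06% of all events). At 4 days 85 of 851 were called (9.99%, against 8.55%), and at 7 days 36 of 693 (5.19%, against 6.24%). With co-treatment 80 of 859 (9.31%, against 9.97%) and 99 of 868 (11.4%, against 11.6%) were called. With MS023 22 of 828 (2.66%, against 1.68%), 33 of 804 (4.1%, against 2.16%), and 20 of 725 (2.76%, against 3.06%) were called. The list of H3K9 and H3K36 readers held 17, 22, and 15 of these MS023 calls. Of the 28 or 29 RI in all lists together, 9, 9, and 6 were higher and 0, 0, and 1 lower with GSK591, 10 and 10 were higher and 0 and 2 lower with co-treatment, and 0 were higher at each time and 1, 2, and 2 lower with MS023, to be read against the background shares given for RI above.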

How the data were processed

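Poly(A)-RNA libraries of A549 cells were analysed from 8 tables of splicing events. Per the labels and methods, the authors trimmed reads with Trim Galore (0.6.5), aligned them to hg19 with STAR (2.4.2a), and ran rMATS on each inhibitor group against DMSO. The deposited read counts per event, library, and form are whole numbers, not normalized, over junctions and the alternative segment. The tables also hold effective lengths in bases, the authors' Ψ as a fraction, the authors' p-values and FDR, and the authors' difference in Ψ, of which only the effective lengths were used. A total of 0 columns of counts were left unused. The control of the 7-day tables was inferred from the labels. DMSO counts were identical between tables that share them (0 of 645455 comparisons differed), which allowed direct comparisons of inhibitors.

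To obtain Ψ, the reads of each form were scaled by the form's effective length, and the scaled inclusion reads were taken as a share of both. Events with at least 10 reads in every library were tested with a quasi-binomial model (likelihood ratio over a Pearson dispersion moderated by squeezeVar of limma 3.58.1 in R 4.3.3, held at 1 or above), with an F test and Benjamini-Hochberg adjustment within event type and comparison over all events. Calls had an adjusted p under 0.05. The prior of the dispersion was taken from events with at least 10 reads of each form, a choice made after seeing events with almost none of 1 form. When the test was tried on simulated data, more of its calls were false than the threshold of 0.05 implies. With 3 libraries against 3, an exact permutation of labels could not go below 0.1, and none is given.

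Members and lists were chosen with earlier results of these data known. All member RI called against DMSO were named, and the 16 other segments with an absolute ΔΨ of at least 0.1 that were called in most comparisons, ties going to the larger change. Annotation and sequences are from GRCh37 with GENCODE 44 lifted to it. Alternatives were limma on log2 odds with 0.5 added to each count, other minimum reads, other adjustment, other dispersion, segments counted once, counts not divided by length, and leaving out each library.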

Additional observations from a re-analysis of the deposited data

Results flagged for a closer look

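In 4 segments the effect of GSK591 at 7 days differed from its effect at 4 days, by the test of the interaction. The SMYD2 2007-nt intron had a ΔΨ of 0.08 at 4 days and -0.00289 at 7 days, a difference of -0.0829 (adjusted p = 0.00155). The SMYD2 947-nt intron had 0.0931 and 0.0174, a difference of -0.0758 (adjusted p = 0.00591). The KDM3A 1221-nt intron had 0.0327 and -0.00168, a difference of -0.0344 (adjusted p = 0.0402). The EHMT1 144-nt exon had -0.182 and 0.0104, a difference of 0.192 (adjusted p = 0.0013). In DMSO these segments were at a mean Ψ of 0.0641, 0.0566, 0.0158, and 0.965 at 4 days and 0.0917, 0.0672, 0.0187, and 0.931 at 7 days, and the direct comparison of the DMSO groups called none of them (adjusted p 0.0664 to 0.775). The 4- and 7-day groups have separate DMSO libraries, so that time and the set of libraries cannot be told apart.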

How the results depend on the processing

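Of the 103 named calls, 103 passed with at least 20 reads in every library and with the prior from all tested events, 101 with a prior as a trend over reads, 98 when adjusted over all event types, 94 with the larger of the event's own and the moderated dispersion, and 29 with limma on the log2 odds. The 2 other priors and the larger dispersion were chosen after seeing the data. For these settings only the adjusted p was recorded anew and ΔΨ was left as it was, so they could not test a change of sign. With each library left out in turn, 67 passed every time, 8 were lost without 1 library, 17 without 2 to 3, and 11 without 4 or more. Without division by effective length 55 ΔΨ moved by more than the spread between libraries.

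Member events called by limma were 4, 11, and 3 with GSK591 at 2, 4, and 7 days, 19 and 28 with co-treatment, and 0 with MS023 at each time (45, 42, and 54 at an unadjusted p under 0.05, which is 8.36%, 7.75%, and 10.6% against 8.34%, 9.08%, and 10.6% of all events). Member RI called by limma were 3, 6, and 3 with GSK591 at 2, 4, and 7 days, 6 and 5 with co-treatment, and 0 with MS023. The share of all events that limma called was not counted, so its counts of calls have no background. In direct comparisons limma called 7, 25, and 19 between GSK591 and MS023, 0 and 0 between co-treatment and GSK591, and 4 between DMSO groups. With the prior from all tested events, 37 were called with 7-day GSK591 and 15, 14, and 23 with MS023. The RI called with 4-day MS023 were 1 when adjusted over all event types and 1 with a trended prior.

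Leaving out each library in turn, member events called ranged 14 to 19, 26 to 31, and 14 to 22 with GSK591 at 2, 4, and 7 days, 28 to 35 and 34 to 42 with co-treatment, and 0 to 3, 5 to 7, and 7 to 11 with MS023. Member RI called ranged 3 to 5, 7 to 8, and 3 to 5 with GSK591, 9 to 9 and 6 to 9 with co-treatment, and 0 to 2, 1 to 3, and 1 to 1 with MS023. The 2-day MS023 RI were lost without MS023 library a or b, 1 was left without DMSO library b or MS023 library c, and at 4 days 1 was left without DMSO library a or MS023 library c. In direct comparisons the ranges were 23 to 34, 37 to 48, and 20 to 26 between GSK591 and MS023, 3 to 5 and 10 to 12 between co-treatment and GSK591, and 7 to 12 between DMSO groups.

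No paired analysis was possible because the tables give libraries by position, with no replicate number. The planned quasi-likelihood test with edgeR was not run. A minimum of 1 read, a dispersion not held at 1, a spread shared over groups, and segments counted once moved no count of member events or RI by more than 1.5 times. The cause of these differences was not tested. Depth limits events near 10 reads per library.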
